A study of Mus musculus with 16 samples.

Results

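The messenger RNA of 8 ligands of inhibitory T-cell checkpoints was followed across 16 B16F10 tumors. The ligands were Cd274 (PD-L1), Pdcd1lg2 (PD-L2), Lgals9 (galectin-9), Pvr, Nectin2, Cd276 (B7-H3), Vsir (VISTA) and Tnfrsf14 (HVEM). They were chosen by gene symbol, and all 8 were found among the 18929 genes of the deposited table. B16F10 is a mouse melanoma cell line, and the tumors grew in female C57BL/6 mice that were 7 to 8 weeks old. Each of the 4 groups held 4 tumors: vehicle (corn oil with an IgG2a isotype control), anti-PD1 (an antibody against PD-1), α-KG (α-ketoglutarate at 100 mg/kg) and α-KG + anti-PD1. Treatment was given into the peritoneum for 9 to 11 days, and every tumor carried the same cell line, so no group differed by genotype. The question was which ligands differed between treatments, and which of them rose with Ifng, the gene of interferon gamma, or with myeloid genes.

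PD-L1 and PD-L2 bind PD-1 on T cells and dampen signaling through the T-cell receptor, and an antibody against PD-1 blocks both contacts. Interferon gamma, made by activated T cells and NK cells, induces PD-L1 in tumor cells and in myeloid cells through JAK kinases and IRF1. Galectin-9 is a secreted lectin that binds TIM-3. Pvr and Nectin-2 are adhesion molecules that bind the inhibitory receptor TIGIT and the activating receptor CD226. B7-H3 is a B7-family protein made by many tumors and stromal cells. VISTA is made mainly by myeloid cells and binds PSGL-1. HVEM is a TNF-receptor family protein that binds BTLA, CD160 and LIGHT.

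Values were in FPKM, a read-fragment unit that takes account of gene length and library size, in which genes can be compared per length. Differences are those of log2(FPKM + 1), in which a fold change of a gene near or under 1 FPKM comes out too small. They were tested with limma over 12850 genes, those with 0.5 FPKM or more in 4 tumors, with a threshold of 0.05 on the adjusted p. Sequencing depth is unknown because the table holds no counts. The FPKM sums ran from 514180 to 527812 after both treatments and from 549740 to 654772 in the other 12 tumors, and hemoglobin genes made up 2.09% to 2.23% and 4.23% to 22.2% of them. Relative to vehicle, the median gene differed by 0.15 in α-KG + anti-PD1, by 0.03 in anti-PD1 and by -0.04 in α-KG. Melanocyte markers were high in every tumor, with a summed level of 7 genes from 7845 to 10572 FPKM. Leukocyte content differed between groups: 4 pan-leukocyte markers (Ptprc, Cd53, Laptm5 and Coro1a) summed to 15.9 to 72.5 FPKM in vehicle tumors, 83.6 to 150.5 after anti-PD1, 213 to 239 after α-KG and 112 to 426 after both. In tumors sequenced whole, fewer cells of a type and less RNA per cell cannot be told apart. Skeletal muscle markers summed to 40.3 to 524 FPKM in vehicle and 1.12 to 53.2 in α-KG + anti-PD1, and were at most 2.13 in the single-treatment groups.

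Cd274 and Pdcd1lg2 are neighbors on the plus strand of chromosome 19 (GRCm38). In the GENCODE M21 annotation Cd274 covers 29367455 to 29388095 with 7 exons and Pdcd1lg2 covers 29410919 to 29471161 with 5 exons, and 22823 bases without another gene lie between them. Pvr (chromosome 7, 19903578 to 19921160) and Nectin2 (19716644 to 19750483) both lie on the minus strand, 153 kb apart. Lgals9 lies on chromosome 11 (78962974 to 78984946, minus strand), Cd276 on chromosome 9 (58524298 to 58555437, minus strand) and Tnfrsf14 on chromosome 4 (154921933 to 154928563, minus strand). Vsir (chromosome 10, 60346851 to 60372684, plus strand) lies inside Cdh23 on the opposite strand. Antisense genes also overlap Cd274, Pdcd1lg2, Pvr and Nectin2, and it is not stated whether the counting used strand. Reads of such partners cannot be told apart without it.

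Promoter sequence from RefSeq (GRCm38.p6) was found for 7 of the 8 ligands, all but Pvr, in windows from 250 bases before to 50 bases after the transcript start. They were searched on both strands for the core of the interferon-stimulated response element, GAAANNGAA, which IRF factors bind and which 8.56% of 32851 such windows held. It was found in Cd274, Lgals9 and Tnfrsf14, each time on the strand opposite to the gene. The match lay at bases -76 to -68 from the start in Cd274, at -54 to -46 in Lgals9 with another at 16 to 24, and at -63 to -55 in Tnfrsf14. These starts are those of RefSeq and can differ from the ends of the GENCODE spans above. The windows of Tnfrsf14, Nectin2 and Cd276 lie wholly inside those spans, so the Tnfrsf14 match is not upstream of its GENCODE start. A PU.1 motif, GAGGAAGT (3.2% of windows), had no match in the 7 windows. The 250 bases before the RefSeq start of the 3 genes are shown because they carry the matches, in capitals. Those of Vsir are shown because it followed Csf1r most closely of the 8 and had none. Each runs 5′ to 3′ on the strand of its gene. A match is a string of letters and not a measured binding site.
Cd274 (chr19:29367188-29367437, plus strand): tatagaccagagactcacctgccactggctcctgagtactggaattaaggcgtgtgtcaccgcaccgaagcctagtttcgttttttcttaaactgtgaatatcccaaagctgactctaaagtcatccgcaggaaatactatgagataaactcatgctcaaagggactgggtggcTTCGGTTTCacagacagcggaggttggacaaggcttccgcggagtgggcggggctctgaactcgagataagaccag
Lgals9 (chr11:78984925-78985174, minus strand): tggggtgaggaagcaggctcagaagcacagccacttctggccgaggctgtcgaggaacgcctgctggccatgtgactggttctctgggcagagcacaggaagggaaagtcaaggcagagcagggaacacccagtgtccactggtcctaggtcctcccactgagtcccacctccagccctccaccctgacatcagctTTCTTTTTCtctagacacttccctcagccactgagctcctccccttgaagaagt
Tnfrsf14 (chr4:154928078-154928327, minus strand): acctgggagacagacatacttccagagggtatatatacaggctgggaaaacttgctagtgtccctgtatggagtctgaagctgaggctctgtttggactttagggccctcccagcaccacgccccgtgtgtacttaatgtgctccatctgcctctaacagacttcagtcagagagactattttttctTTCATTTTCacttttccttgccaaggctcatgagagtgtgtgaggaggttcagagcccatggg
Vsir (chr10:60346601-60346850, plus strand): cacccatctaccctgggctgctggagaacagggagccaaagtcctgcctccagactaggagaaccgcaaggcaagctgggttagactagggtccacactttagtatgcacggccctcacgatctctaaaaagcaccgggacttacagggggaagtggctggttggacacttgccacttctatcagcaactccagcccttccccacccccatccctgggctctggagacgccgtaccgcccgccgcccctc

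**Figure D1:**
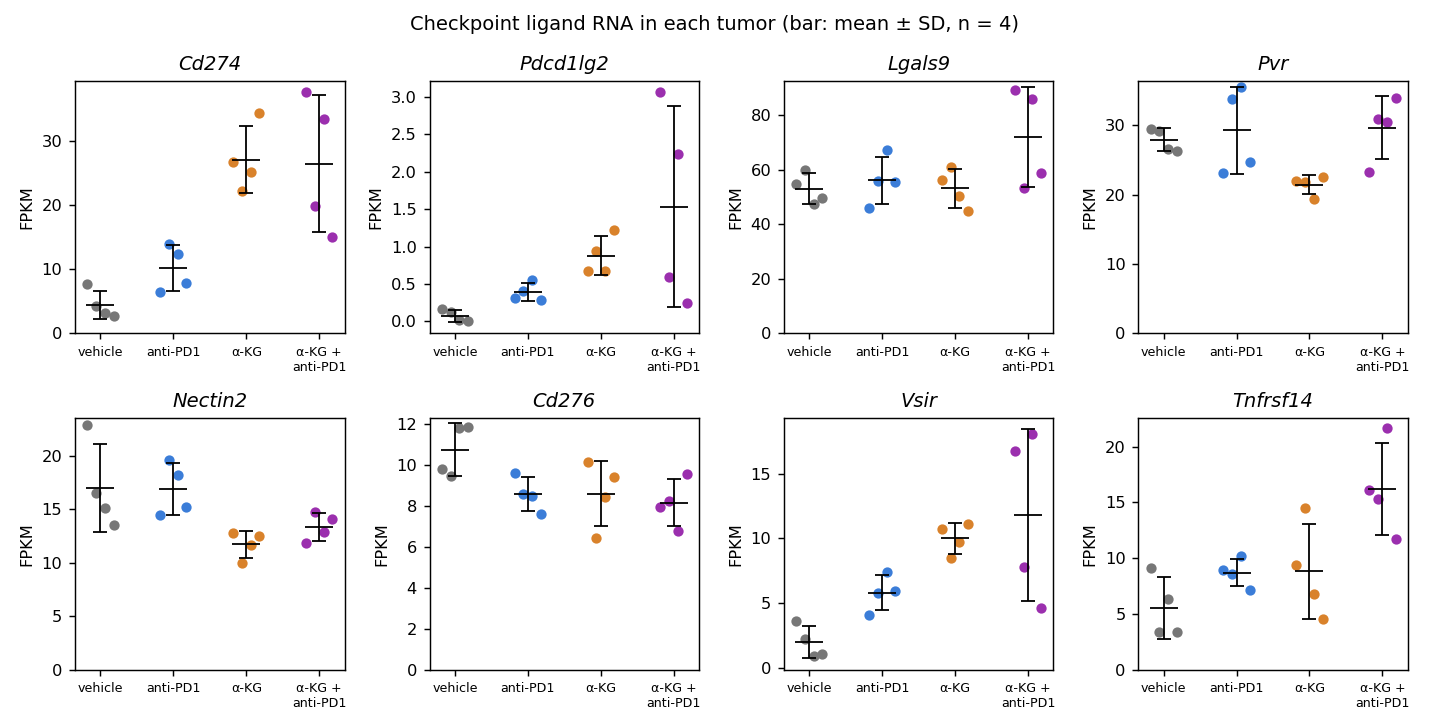
FPKM of the 8 ligands in each tumor by group, 1 panel per gene, with the mean and SD of 4 tumors as bars. Cd274 was at 2.66 to 7.63 FPKM in vehicle and at 22.24 to 34.4 in α-KG, and Lgals9, Pvr, Nectin2 and Cd276 changed little by comparison.

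In vehicle tumors the ligands spanned a wide range of levels. Lgals9 was highest at 52.95 ± 5.71 FPKM (SD, n = 4), followed by Pvr at 27.9 ± 1.67, Nectin2 at 17.0 ± 4.12 and Cd276 at 10.7 ± 1.29. Tnfrsf14 (5.55 ± 2.77), Cd274 (4.405 ± 2.24) and Vsir (1.96 ± 1.23) came next, and Pdcd1lg2 was lowest at 0.0775 ± 0.0793. The ranges of Lgals9, Pvr, Nectin2 and Cd276 did not overlap one another, whereas those of Tnfrsf14 and Cd274, and of Cd274 and Vsir, did. In α-KG tumors Cd274 reached 27.2 ± 5.19 FPKM, above Pvr at 21.4 ± 1.39, with overlapping ranges (22.24 to 34.4 and 19.4 to 22.58). Pdcd1lg2 stayed the lowest of the 8 in every group. It passed the filter on low values with 8 tumors, none of them vehicle, so it was testable only through the groups where it was high, and the other 7 ligands passed in all 16 tumors.

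Before the ligands are related to interferon and myeloid genes, the levels of the 3 reference genes are given. Ifng was at 0.79, 0.26, 0 and 0.11 FPKM in vehicle, 0.26, 1.63, 2.42 and 0.72 in anti-PD1, 0.27, 0.77, 0.18 and 0.06 in α-KG and 11.49, 4.37, 14.4 and 1.37 in α-KG + anti-PD1. It was therefore near its vehicle level after α-KG alone, and α-KG + anti-PD1 tumors 1 and 3 were far above the rest. Csf1r, the receptor that sustains macrophages, was at 1.74 to 11.06 FPKM in vehicle tumors, 11.46 to 19.34 after anti-PD1, 21.83 to 27.26 after α-KG and 16.66 to 50.8 after both. S100a8, a neutrophil protein, was at 415.79 to 1044.1 FPKM in α-KG and at 3.79 to 39.2 in the 12 other tumors. Relative to vehicle, Ifng differed by 0.04 in α-KG (adjusted p = 0.967) and by 2.48 in α-KG + anti-PD1 (adjusted p = 0.000946). Csf1r differed by 2.27 and 2.57 (adjusted p = 0.00133 and 0.000476), and S100a8 by 6.04 and 0.37 (adjusted p = 4.89e-06 and 0.644). The 3 genes thus had 3 different patterns over the groups.

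**Figure D2:**
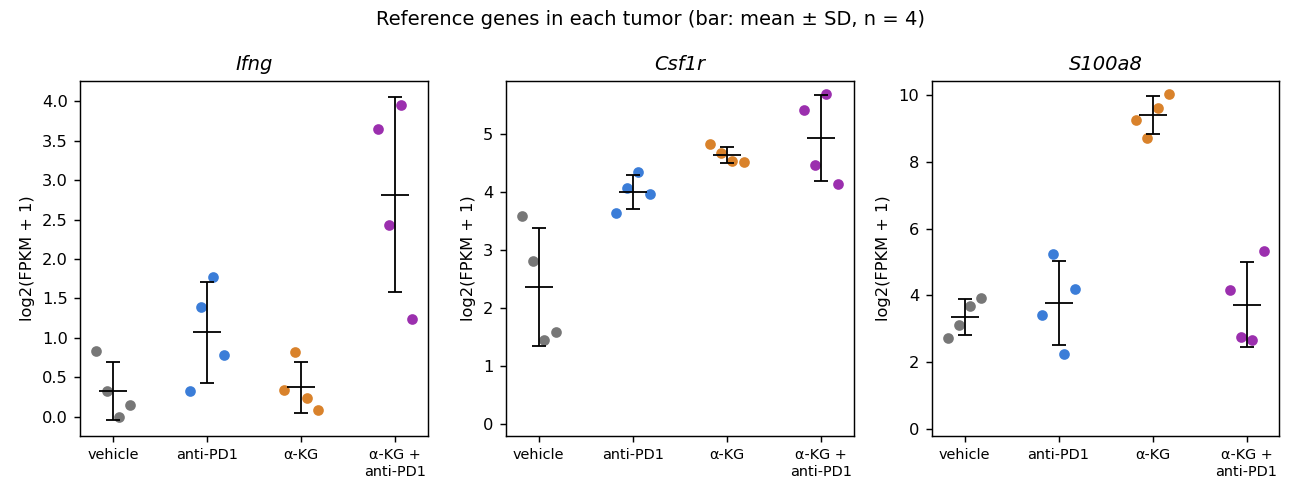
Ifng, Csf1r and S100a8 in each tumor as log2(FPKM + 1), with the mean and SD of 4 tumors per group. S100a8 was at 415.79 FPKM or more in the 4 α-KG tumors and at 39.2 or less in the other 12, and Ifng was highest in α-KG + anti-PD1.

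A total of 5 ligands rose and 1 fell in α-KG + anti-PD1 tumors compared with vehicle. Cd274, Vsir, Tnfrsf14, Pdcd1lg2 and Lgals9 rose and Cd276 fell, while Pvr (0.07) and Nectin2 (-0.31) did not pass the test. Pdcd1lg2 reached the filter's floor in 0 vehicle tumors and was testable only through treated ones. Its place in the counts and medians here and below is therefore description and not support. Of all genes tested, 34.9% rose and 10.5% fell in this comparison, so 5 of 8 and 1 of 8 stand against a broad background. The 4 tumors of one group lay wholly above those of the other for 4 ligands (Cd274, Pdcd1lg2, Vsir and Tnfrsf14), and 34.8% of all genes were apart in one direction or the other. The median difference of the 8 ligands was 0.74, and that of all genes was 0.15.

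After α-KG alone, 2 ligands rose (Cd274 and Vsir) and 1 fell (Nectin2), against 8.4% and 7.53% of all genes. Cd274, Pdcd1lg2 and Vsir were apart upward and Pvr and Nectin2 downward, with 20.5% of genes apart. After anti-PD1 alone no ligand passed limma's test, and 0.467% of genes rose and 0.28% fell. At an unadjusted p under 0.05, 3 ligands were higher (Cd274, Vsir and Tnfrsf14) and 1 was lower (Cd276) in that comparison. The share of all genes at an unadjusted p was not counted, here or below. Such counts therefore say nothing particular to the ligands. Pdcd1lg2 and Vsir were apart upward there, with 8.61% of genes apart. These comparisons share the same 4 vehicle tumors.

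**Figure D3:**
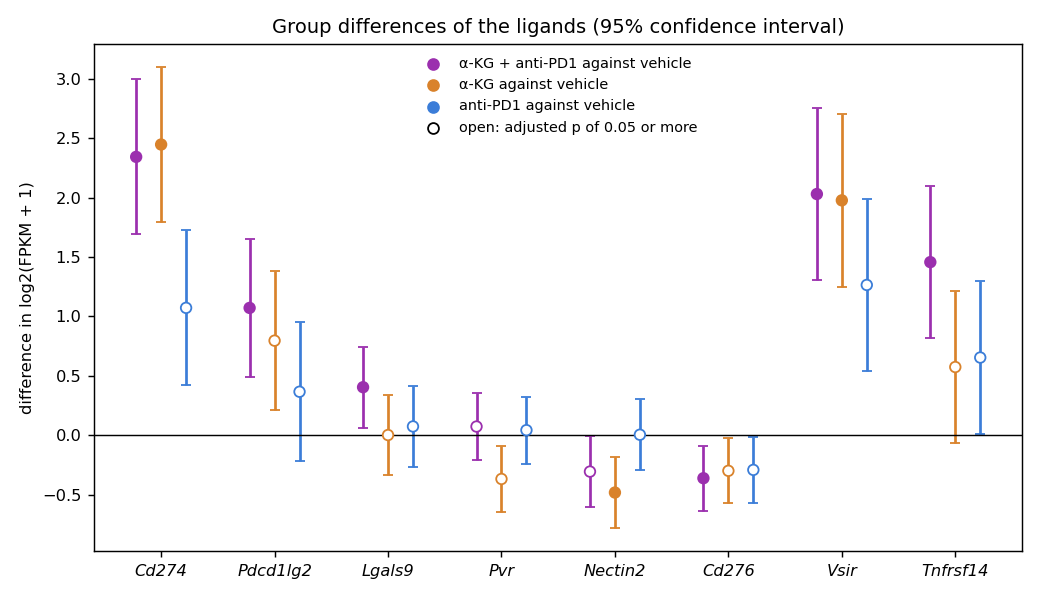
Difference in log2(FPKM + 1) from vehicle for each ligand in the 3 treated groups, with 95% confidence intervals from limma over 16 tumors. Filled points had an adjusted p under 0.05, and Cd274 and Vsir were filled in both groups that received α-KG.

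Between treated groups the calls were fewer. Only Cd274 rose in α-KG + anti-PD1 compared with anti-PD1, where 14.2% of genes rose and 1.31% fell, and 2 ligands (Cd274 and Tnfrsf14) were apart, with 16.6% of genes apart. Pvr and Tnfrsf14 rose compared with α-KG, where 31.8% of genes rose and 6.47% fell, and 1 ligand (Pvr) was apart, with 35.4% of genes apart. Cd274 alone was higher in α-KG than in anti-PD1, where 2.8% of genes were higher and 0.358% lower. Cd274, Pdcd1lg2 and Vsir were apart upward and Pvr and Nectin2 downward between these last groups, with 9.71% of genes apart. The interaction of both treatments, or how far the response to the antibody differed when α-KG was given too, passed limma's threshold for no ligand, against 7.99% of genes above and 3.13% below 0. At an unadjusted p under 0.05, where the share of all genes was not counted, it was below 0 for 2 ligands, Cd274 and Vsir.

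Cd274 was at 7.63, 4.19, 3.14 and 2.66 FPKM in vehicle, 6.49, 13.9, 12.43 and 7.85 in anti-PD1, 26.82, 22.24, 25.17 and 34.4 in α-KG and 37.68, 19.95, 33.46 and 15.08 in α-KG + anti-PD1. All 8 tumors that received α-KG were above all 8 that did not. Mean FPKM was 6.17-fold higher in α-KG and 6.03-fold higher in α-KG + anti-PD1 than in vehicle, with log2 differences of 2.45 (SE 0.31, adjusted p = 4.82e-05) and 2.34 (SE 0.31, adjusted p = 0.000417). The 2 groups that received α-KG differed from each other by -0.10 (95% confidence interval -0.76 to 0.55). Anti-PD1 alone gave 1.07 (adjusted p = 0.0987), and 1.33 with an adjusted p of 0.0199 without vehicle tumor 1, the highest of its group. Against anti-PD1, Cd274 was higher by 1.27 in α-KG + anti-PD1 (adjusted p = 0.0193) and by 1.37 in α-KG (adjusted p = 0.0188). The first call was lost without anti-PD1 tumor 1 (adjusted p = 0.0802) or 4 (0.0685) or α-KG + anti-PD1 tumor 1 (0.0503) or 3 (0.0676), and with only the 2 groups in the fit (0.0644). The second was lost without anti-PD1 tumor 1 (0.0563) or 4 (0.0691) or α-KG tumor 1 (0.0522) or 4 (0.0672). The interaction was -1.18 (adjusted p = 0.0883), and it passed without vehicle tumor 1 (-1.43, adjusted p = 0.0375) and after centering each tumor on its median (-1.37, adjusted p = 0.0348).

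Pdcd1lg2 was at 0.16, 0.13, 0.02 and 0 FPKM in vehicle and 0.31, 0.41, 0.55 and 0.29 in anti-PD1. It was at 0.68, 0.94, 0.68 and 1.22 in α-KG and 3.06, 0.6, 2.24 and 0.24 in α-KG + anti-PD1. Every treated tumor was above every vehicle tumor, and α-KG + anti-PD1 split into tumors 1 and 3, which were the highest of all, and tumors 2 and 4, which were below the 4 α-KG tumors. The log2 difference from vehicle was 1.07 in α-KG + anti-PD1 (SE 0.27, adjusted p = 0.0059) and 0.80 in α-KG (SE 0.27, adjusted p = 0.0606). The latter passed without α-KG + anti-PD1 tumor 1 (adjusted p = 0.0227) or 4 (0.0198), which enter this comparison only through the shared spread. It also passed with a pseudocount of 0.1 (2.55, adjusted p = 0.0059), after quantile normalization (0.74, adjusted p = 0.0386) and with only the 2 groups in the fit (adjusted p = 0.00251). Against anti-PD1, α-KG + anti-PD1 differed by 0.71 (adjusted p = 0.0861), and by 0.99 without its tumor 4 (adjusted p = 0.0108). Values this low are the least precise in the table.

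Vsir was at 3.59, 2.24, 0.93 and 1.09 FPKM in vehicle, 4.11, 5.76, 7.39 and 5.9 in anti-PD1, 10.71, 8.47, 9.7 and 11.13 in α-KG and 16.76, 7.82, 18.08 and 4.58 in α-KG + anti-PD1. As for Pdcd1lg2, tumors 1 and 3 of the last group were the highest of all 16, and every treated tumor was above every vehicle tumor. Mean FPKM was 5.1-fold higher in α-KG and 6.02-fold higher in α-KG + anti-PD1 than in vehicle, with log2 differences of 1.98 (SE 0.34, adjusted p = 0.000964) and 2.03 (SE 0.34, adjusted p = 0.000572). Both calls held under every planned setting and without any single tumor. Anti-PD1 alone gave 1.26 (adjusted p = 0.0836), with an adjusted p of 0.0215 without vehicle tumor 1 and 0.0406 without α-KG + anti-PD1 tumor 4. Against anti-PD1, α-KG + anti-PD1 differed by 0.76 (adjusted p = 0.128), and by 1.11 without its tumor 4 (adjusted p = 0.0202). The interaction of -1.21 had an adjusted p of 0.11.

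Tnfrsf14 was at 9.13, 3.34, 6.34 and 3.38 FPKM in vehicle, 8.9, 8.6, 10.16 and 7.17 in anti-PD1, 9.4, 14.48, 6.83 and 4.51 in α-KG and 16.07, 15.28, 21.64 and 11.76 in α-KG + anti-PD1. The last group was above vehicle and anti-PD1 without overlap, while α-KG overlapped vehicle. Its mean was 2.92-fold that of vehicle, a log2 difference of 1.46 (SE 0.30, adjusted p = 0.00173). Compared with α-KG it was higher by 0.88 (SE 0.30, adjusted p = 0.0308). That call was lost after quantile normalization (0.65, adjusted p = 0.091) and centering (0.61, adjusted p = 0.105). It was also lost without α-KG tumor 3 (adjusted p = 0.0851) or 4 (0.1), or α-KG + anti-PD1 tumor 1 (0.0571), 2 (0.0526) or 3 (0.093). The difference from anti-PD1 was 0.80 (adjusted p = 0.0768), with an adjusted p of 0.0493 without vehicle tumor 1. In α-KG alone it was 0.57 (adjusted p = 0.216).

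Lgals9 was at 47.28 to 60.08 FPKM in vehicle tumors, 45.9 to 67.16 after anti-PD1, 44.86 to 61.02 after α-KG and 89.39, 53.44, 85.99 and 58.78 after both. Tumors 1 and 3 of the last group were again the highest, and tumors 2 and 4 lay within the range of the other groups. The difference from vehicle was 0.40 (SE 0.16), with an adjusted p of 0.04996 that just passed the threshold. It did not hold after quantile normalization (0.0502), after centering (0.09, adjusted p = 0.6), with a pseudocount of 0.1 (0.0503), without the filter (0.0729), with the replicate block (0.0628) or with only the 2 groups in the fit (0.0907). It was lost without vehicle tumor 1 (0.0579), 3 (0.13) or 4 (0.114), anti-PD1 tumor 2 (0.0582) or 4 (0.0608), or α-KG tumor 1 (0.0593), 2 (0.0512) or 3 (0.0589). Without α-KG + anti-PD1 tumor 1 it was 0.29 (adjusted p = 0.155) and without tumor 3 it was 0.31 (0.154). Compared with α-KG it was 0.40 (adjusted p = 0.0581), and passed when α-KG tumor 2 was left out (0.046), as it did for tumors 2 (0.0186) and 4 (0.0345) of α-KG + anti-PD1.

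Pvr and Nectin2, the ligands shared by TIGIT and CD226, followed another order. Pvr was at 29.51, 29.21, 26.61 and 26.36 FPKM in vehicle and 21.9, 21.82, 19.4 and 22.58 in α-KG. Nectin2 was at 22.94, 16.5, 15.18 and 13.51 FPKM in vehicle and 12.8, 9.95, 11.69 and 12.49 in α-KG. Both were below vehicle in all 4 α-KG tumors. The difference was -0.48 for Nectin2 (SE 0.14, adjusted p = 0.0289) and -0.37 for Pvr (SE 0.13, adjusted p = 0.0718). The Nectin2 call was lost without vehicle tumor 1 (-0.34, adjusted p = 0.0581) or 2 (0.0526), without α-KG tumor 2 (0.0892) or 3 (0.0651), with the replicate block (0.0555), with only the 2 groups in the fit (0.0627) and after rescaling to the same sum (0.0923). Pvr passed after centering (-0.41, adjusted p = 0.0188) and without α-KG + anti-PD1 tumor 1 (0.0464). In α-KG + anti-PD1, Pvr was at 23.29, 30.97, 30.47 and 33.94 FPKM, above all α-KG tumors and within the range of anti-PD1 (23.06 to 35.5). It was higher than in α-KG by 0.44 (SE 0.13, adjusted p = 0.0168), a call lost after quantile normalization (0.28, adjusted p = 0.0923), after centering (0.17, adjusted p = 0.236) and without α-KG tumor 3 (0.40, adjusted p = 0.0553). Nectin2 differed from vehicle by -0.31 in α-KG + anti-PD1 (adjusted p = 0.0863), and by -0.40 without vehicle tumor 4 (adjusted p = 0.0414). After quantile normalization it was -0.56 (adjusted p = 0.00265) and after centering -0.62 (adjusted p = 0.000754).

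Cd276 ran from 9.45 to 11.86 FPKM in vehicle tumors, 7.59 to 9.61 after anti-PD1, 6.43 to 10.13 after α-KG and 6.79 to 9.57 after both, with overlap between all groups. It fell by 0.36 in α-KG + anti-PD1 compared with vehicle (SE 0.13, adjusted p = 0.0332). The call was lost without vehicle tumor 3 (adjusted p = 0.0966) or 4 (0.0983), or α-KG + anti-PD1 tumor 1 (0.061), 2 (0.055) or 3 (0.107), and after rescaling to the same sum (-0.16, adjusted p = 0.35). The differences were -0.29 in anti-PD1 (adjusted p = 0.277) and -0.30 in α-KG (adjusted p = 0.132).

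To ask which ligands rose with interferon gamma and which with myeloid genes apart from treatment, slopes were fitted within groups, 1 reference gene at a time. A slope is the change in log2(FPKM + 1) of a ligand per unit of log2(FPKM + 1) of the reference gene. On Ifng, 4 ligands had a positive slope past the threshold, against 9.31% of genes (1.39% had a negative one). These were Vsir (0.63, SE 0.10, adjusted p = 0.000663), Pdcd1lg2 (0.48, adjusted p = 0.00239), Cd274 (0.52, adjusted p = 0.00555) and Lgals9 (0.28, adjusted p = 0.00318). Tnfrsf14 had 0.35 (adjusted p = 0.154) and Cd276 -0.16 (adjusted p = 0.13). On Csf1r, 3 ligands passed, against 8.24% of genes (1% negative): Vsir (0.76, SE 0.09, adjusted p = 7.73e-05), Cd274 (0.62, adjusted p = 0.00211) and Lgals9 (0.27, adjusted p = 0.0332). Pdcd1lg2 had 0.41 (adjusted p = 0.0807). On S100a8 no ligand passed limma's threshold, against 0.0233% of genes with a positive and 0% with a negative slope, and 1 ligand, Tnfrsf14 (-0.27), had an unadjusted p under 0.05. Pvr and Nectin2 had slopes of 0.02 and 0.03 on Ifng and 0.04 and 0.15 on Csf1r, none past the threshold.

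Ifng and Csf1r moved together within groups, with a slope of 0.67 of Csf1r on Ifng (adjusted p = 0.00829), so these slopes do not separate the 2 genes. The Pdcd1lg2 slope on Ifng was lost without α-KG + anti-PD1 tumor 4 (0.41, adjusted p = 0.0842), and its slope on Csf1r passed without vehicle tumor 1 (0.62, adjusted p = 0.0306) and with a pseudocount of 0.1 (0.88, adjusted p = 0.0165). The Lgals9 slope on Csf1r was lost with the replicate block (adjusted p = 0.123), after centering (0.121), and without vehicle tumor 2 (0.0537), anti-PD1 tumor 1 (0.0545) or 3 (0.0534), or α-KG + anti-PD1 tumor 1 (0.0553), 3 (0.0854) or 4 (0.0853).

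**Figure D4:**
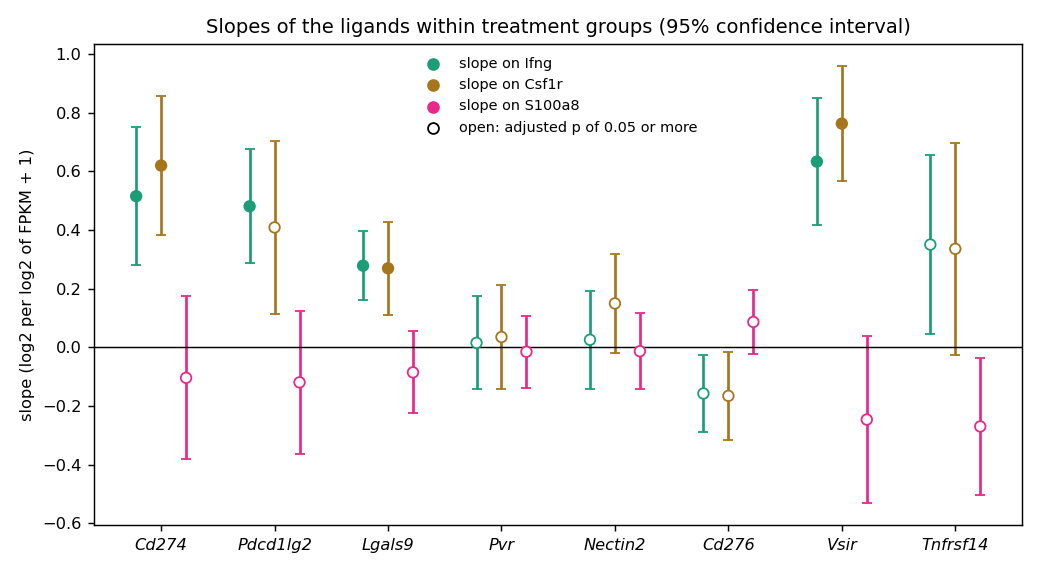
Slope of each ligand on Ifng, Csf1r and S100a8 within groups, in log2(FPKM + 1) per log2(FPKM + 1), with 95% confidence intervals from limma over 16 tumors. Vsir, Cd274 and Lgals9 were filled (adjusted p under 0.05) for both Ifng and Csf1r, and no ligand was filled for S100a8.

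With the 3 reference genes in 1 fit across all 16 tumors and no group term, the slopes that passed the threshold were not the same for each ligand. Slopes were not tested against each other between ligands. Cd274 had a positive slope on each: 0.41 on Ifng (SE 0.10, adjusted p = 0.0114), 0.46 on Csf1r (SE 0.09, adjusted p = 0.00606) and 0.23 on S100a8 (SE 0.03, adjusted p = 0.000682). Pdcd1lg2 passed on Ifng (0.43, adjusted p = 0.018) and not on Csf1r (0.03) or S100a8 (0.12, adjusted p = 0.144). Vsir passed on Csf1r (0.64, SE 0.08, adjusted p = 0.00011) and not on Ifng (0.17, adjusted p = 0.229) or S100a8 (0.08, adjusted p = 0.289). Lgals9 had 0.20 on Ifng (adjusted p = 0.0697) and values near 0 on the others, and Nectin2 had -0.12 on S100a8 (adjusted p = 0.0737). The ligands with a positive slope numbered 2 on Ifng, 2 on Csf1r and 1 on S100a8, against 8.29%, 3.95% and 3% of genes, and none had a negative one, against 1.23%, 2.56% and 0.117%. At an unadjusted p under 0.05, Nectin2 was below 0 on Ifng (-0.21) and on S100a8. Lgals9 was above 0 on Ifng at that level, and Pdcd1lg2 and Vsir were above 0 on S100a8.

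The S100a8 slope of Cd274 rested on the α-KG group, which alone had high S100a8, so S100a8 and the group cannot be told apart there. With group means added, Cd274 had 0.32 on Ifng (adjusted p = 0.266), 0.46 on Csf1r (0.147) and 0.16 on S100a8 (0.754). With a pseudocount of 0.1 its slopes were 0.22 (adjusted p = 0.138), 0.49 (0.0581) and 0.22 (0.0652), none past the threshold. Without vehicle tumor 4 its slope on Csf1r was 0.39 (adjusted p = 0.126), and without α-KG + anti-PD1 tumor 1 the slope of Pdcd1lg2 on Ifng was 0.30 (adjusted p = 0.108). That slope was also lost with a pseudocount of 0.1 (0.18, adjusted p = 0.547), after quantile normalization (0.34, adjusted p = 0.089) and with group means (0.53, adjusted p = 0.079). The slope of Lgals9 on Ifng passed without vehicle tumor 2 (0.0397) or α-KG + anti-PD1 tumor 2 (0.0173), and that of Nectin2 on S100a8 without anti-PD1 tumor 1 (0.0266) or 2 (0.0135).

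Correlations over the 16 tumors were computed as well. Their p came from two-sided permutation tests with 100000 resamples, adjusted over 24 relations of 8 ligands with 3 genes, and 1e-05 is the smallest p they can give. Tumors were permuted across the groups although those of a group share a treatment. These p therefore also carry the differences between groups, and p from permutation inside the groups are given further below. With Csf1r, Vsir had r = 0.98 and rho = 0.97 and Cd274 had r = 0.93 and rho = 0.95, each with a permutation p of 1e-05 (adjusted 0.00012 for r and 8e-05 for rho). Pdcd1lg2 followed with r = 0.82 (permutation p = 0.00039, adjusted 0.00187) and rho = 0.95 (permutation p = 1e-05). With Ifng, Lgals9 had r = 0.86 (permutation p = 0.0002, adjusted 0.00132) and rho = 0.75 (permutation p = 0.0013, adjusted 0.00624). Tnfrsf14 had r = 0.79 (permutation p = 0.00022, adjusted 0.00132) and rho = 0.85 (permutation p = 7e-05, adjusted 0.00042). Both also passed with Csf1r, at r = 0.72 for Tnfrsf14 (adjusted permutation p = 0.00418) and r = 0.59 for Lgals9 (0.0381). Their rho with Csf1r was 0.69 (adjusted permutation p = 0.0162) and 0.51 (0.0988). Cd274 with Ifng had r = 0.53 (permutation p = 0.0329, adjusted 0.0658) and rho = 0.42 (permutation p = 0.105, adjusted 0.18), since the α-KG tumors had high Cd274 at low Ifng.

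Cd276 went the other way, with r = -0.77 against Csf1r (permutation p = 0.00061, adjusted 0.00244) and -0.59 against Ifng (permutation p = 0.0152, adjusted 0.0364). Its rho was -0.65 against Csf1r (permutation p = 0.00816, adjusted 0.0245) and -0.59 against Ifng (permutation p = 0.0191, adjusted 0.0509). With the 2 most extreme tumors of the reference gene (those farthest from its median) left out, r was 0.97 for Vsir and 0.91 for Cd274 with Csf1r. With Ifng, r over all 16 tumors was 0.62 for Vsir (adjusted permutation p = 0.0285) and 0.73 for Pdcd1lg2 (0.011). Their rho was 0.45 each and did not pass (adjusted permutation p = 0.156 for both). Without the 2 tumors farthest in Ifng, r was 0.28 for Cd274, 0.33 for Vsir and 0.16 for Pdcd1lg2, so these relations rested on those 2 tumors. For Lgals9 it was 0.55 (permutation p = 0.0399, adjusted 0.0956) with rho = 0.63 (permutation p = 0.0181, adjusted 0.0606). Tnfrsf14 stayed at 0.69 (adjusted permutation p = 0.0229), and Pvr went from 0.36 (adjusted permutation p = 0.316) to 0.67 (adjusted permutation p = 0.0251). With Csf1r, r was 0.72 for Tnfrsf14 (adjusted permutation p = 0.0208) and 0.57 for Lgals9 (0.0883). For Cd276 it was -0.54 with Csf1r and -0.46 with Ifng, and neither relation held (adjusted permutation p = 0.104 and 0.192). S100a8 split the tumors into the 4 of α-KG alone and 12 others, so no r over 16 is given. Over the 12, r ran from -0.17 for Nectin2 to 0.15 for Cd276, with no raw or adjusted permutation p under 0.05. Without the 2 farthest of the 12, Pvr had r = -0.88 (adjusted permutation p = 0.00756).

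Within groups, on deviations from the group means, r with Csf1r was 0.92 for Vsir (permutation p = 0.00025, adjusted 0.006) and 0.83 for Cd274 (permutation p = 0.00176, adjusted 0.0141). With Ifng it was 0.86 for Vsir (permutation p = 0.0015, adjusted 0.0141) and 0.78 for Cd274 (permutation p = 0.00462, adjusted 0.0151). Pdcd1lg2 (0.83, adjusted permutation p = 0.0348), Lgals9 (0.83, 0.0151), Tnfrsf14 (0.54, 0.0151) and Cd276 (-0.62, 0.0158) passed with Ifng too. With Csf1r, Lgals9 (0.71, 0.0151), Pdcd1lg2 (0.63, 0.0334) and Cd276 (-0.58, 0.0348) also passed. The limma slopes, adjusted over all genes tested, did not pass for Tnfrsf14 and Cd276 on Ifng or for Pdcd1lg2 and Cd276 on Csf1r. Tnfrsf14 had -0.55 with S100a8 (permutation p = 0.00475, adjusted 0.0151). Without the 2 farthest tumors the adjusted permutation p of all 24 within-group relations was above 0.05, with r of 0.94 for Vsir and 0.83 for Cd274 with Csf1r (adjusted 0.0626 and 0.0835) and of 0.68 and 0.65 with Ifng (adjusted 0.0835 and 0.0865).

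**Figure D5:**
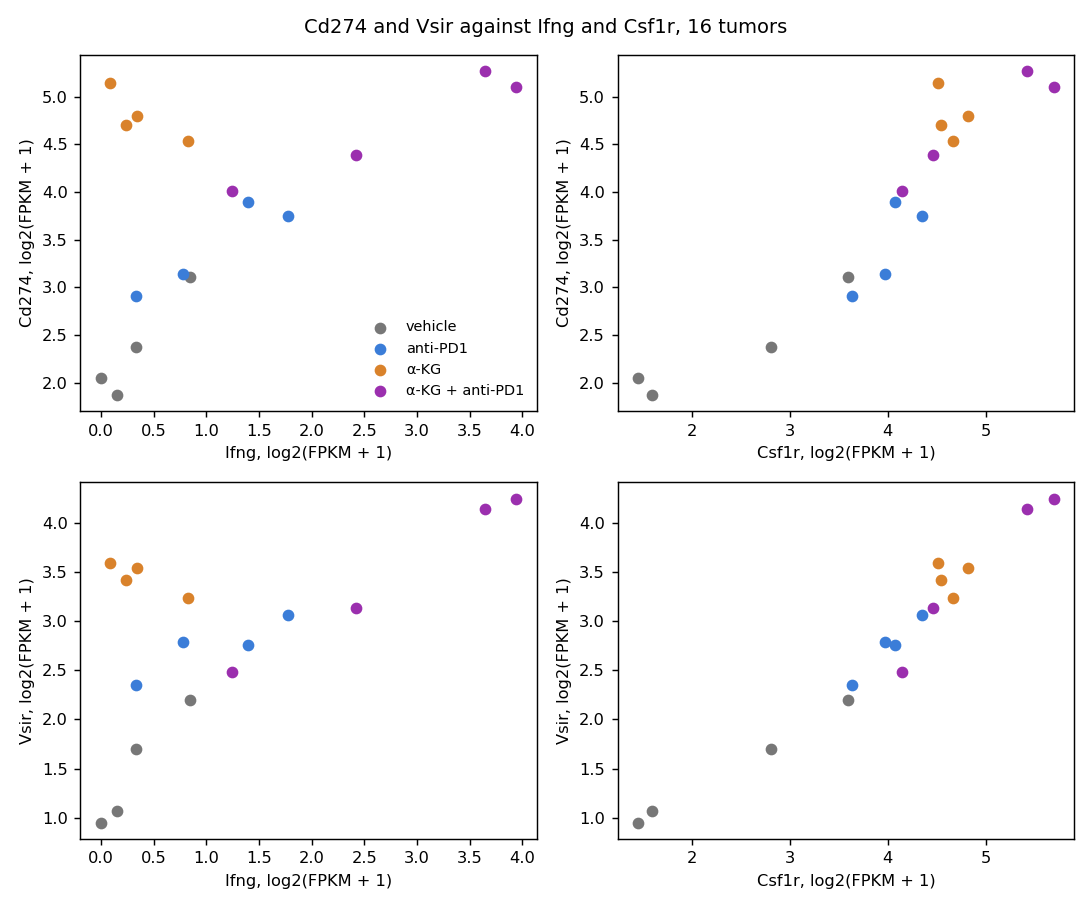
Cd274 and Vsir against Ifng and Csf1r in 16 tumors, all as log2(FPKM + 1), colored by group. Against Csf1r the groups lay along 1 band (r = 0.93 for Cd274 and 0.98 for Vsir), and against Ifng the 4 α-KG tumors lay above the others at low Ifng.

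The differences of Cd274 and Vsir were also estimated at equal levels of Csf1r, of the leukocyte markers or of Ifng. With log2(FPKM + 1) of Csf1r in the fit, a setting chosen after seeing the data, the Cd274 difference between α-KG and vehicle was 1.04 (adjusted p = 0.102), and with the mean of the 4 pan-leukocyte markers it was 0.60 (adjusted p = 0.274). With Ifng in the fit it stayed at 2.42 (adjusted p = 3.66e-07). For Vsir the same 3 fits gave 0.24 (adjusted p = 0.618), -0.23 (0.571) and 1.95 (1.45e-06). Between α-KG and anti-PD1, Cd274 passed in each of the 3 fits, at 0.99 with Csf1r (adjusted p = 0.00504), 0.59 with the pan-leukocyte markers (0.0496) and 1.73 with Ifng (6.14e-05). For α-KG + anti-PD1 against vehicle, the Cd274 difference was 0.75 with Csf1r (adjusted p = 0.998), 0.55 with the pan-leukocyte markers (0.999) and 1.06 with Ifng (0.398). The unadjusted p of limma were 0.0409, 0.0615 and 0.00655 in that order. The 95% confidence intervals were 0.04 to 1.47, -0.03 to 1.13 and 0.34 to 1.78, so a difference was not excluded. Such a fit compares tumors at equal levels of a gene that itself differed between the groups. The part of leukocyte content in these differences was not tested in separated cells.

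The genes whose levels followed each ligand most closely were sought by Pearson's r over the 16 tumors among 11577 other genes (11578 for Pdcd1lg2) with a mean of at least 1 FPKM. This is a description, since tumors of a group share a treatment. Cd274 was closest to Ptprc (r = 0.989), which encodes the leukocyte antigen CD45, and then to Lcp2, Fmnl1, Themis2 and Icam1 (0.984 to 0.989). Vsir was closest to Cd52 (0.990), Coro1a, Selplg, Fes and Rac2, and Selplg encodes its receptor PSGL-1. Pdcd1lg2 was closest to Il16 (0.971), Il18rap, Adora2a, Runx3 and Adam19. Tnfrsf14 was closest to Tmem82 (0.968), Tlr7, Zfp950, Fbxl18 and Gsap, and Lgals9 to Ocel1 (0.924), Plekhb2, Ctsw, Gimap6 and Cst3. The other 3 ligands had different neighbors: Lin9 (0.942), Kif18a, Brip1, Vars and Prmt9 for Pvr, Tex264 (0.911), Lamc1, Sgce, Abcb6 and Gli3 for Nectin2, and Scfd2 (0.898), Fzd2, Eif2b3, Adgrg1 and Alg2 for Cd276. Among the ligands themselves r was 0.96 for Cd274 with Vsir, 0.88 for Pdcd1lg2 with Vsir, 0.85 for Cd274 with Pdcd1lg2 and 0.67 for Pvr with Nectin2. Within groups these were 0.89, 0.82, 0.74 and 0.63.

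The receptors and partners of the ligands include many T-cell genes. Of 13 tested genes, 11 rose in α-KG + anti-PD1 compared with vehicle (median difference 1.17, with 34.9% of all genes higher), among them Pdcd1, which encodes PD-1 (3.18), Selplg (2.83), Tigit (2.30) and Havcr2, which encodes TIM-3 (2.15). In α-KG alone 3 rose, namely Selplg (2.79), Cd80 (2.01), a B7 protein that also binds PD-L1, and Tnfsf14, which encodes LIGHT (1.68), with a median of 0.30 over the list and 8.4% of all genes higher. Pdcd1 differed there by 0.57 (adjusted p = 0.528). Compared with α-KG, 7 rose in α-KG + anti-PD1 and 2 fell (Cd80 by 1.06 and Tnfsf14 by 0.83), against 31.8% and 6.47% of all genes. After anti-PD1 alone 0 of 13 passed limma's test, and 4 were higher at an unadjusted p under 0.05. The share of all genes at that level was not counted.

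Among 11 tested genes of other inhibitory and costimulatory ligands, 9 rose and 1 fell in α-KG + anti-PD1 compared with vehicle (median 0.70), against 34.9% and 10.5% of all genes. H2-T23, a non-classical MHC class I gene, led with 2.14, followed by Cd86 (1.52) and Lgals3 (1.05), and Lgals1 fell by 0.51. In α-KG alone 4 rose (Cd80, Cd86 by 1.09, Ceacam1 by 0.80 and Lgals3 by 0.69) and Lgals1 fell by 0.40, with a median of 0.45 and 8.4% and 7.53% of all genes called.

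The genes of interferon gamma signaling differed between the 2 groups in which Cd274 was high. In α-KG + anti-PD1 all 13 rose compared with vehicle, with a median of 2.08 and 34.9% of all genes higher, led by Gbp2 (3.89), Psmb8 (3.65), Cxcl9 (3.44) and Tap1 (3.43). In α-KG alone 2 of 13 rose, where 8.4% of all genes did, Jak2 by 0.74 and the receptor chain Ifngr2 by 0.46, with a median of 0.46, while Irf1 differed by 0.58 (adjusted p = 0.535). Compared with α-KG, 10 of the 13 rose in α-KG + anti-PD1 (median 1.89), with 31.8% of all genes higher, and Cd274 did not pass the test between these groups. After anti-PD1 alone 0 of 13 passed limma's test (median 0.89), and 6 were higher at an unadjusted p under 0.05. For all genes the share at that level was not counted.

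Of 13 genes known to act on PD-L1 expression or stability, 5 rose and 3 fell in α-KG alone (median 0.24). Of all genes, 8.4% rose and 7.53% fell in that comparison. Cmtm4 (1.41) and Cmtm6 (0.53), which protect PD-L1 from degradation, rose, as did Nfkb1 (0.72), Rela (0.41) and Spop (0.37), of which Spop takes part in PD-L1 degradation. Hip1r, which directs PD-L1 to lysosomes, fell by 0.38, Stub1, a ubiquitin ligase that acts on PD-L1, fell by 0.33, and Cops5, which stabilizes PD-L1, fell by 0.37. In α-KG + anti-PD1, 9 rose and 1 fell (median 0.48), against 34.9% and 10.5% of all genes, led by Tet2 (1.05), Nfkb1 (0.94), Cmtm4 (0.75) and Tet3 (0.72). Tet2 and Tet3 differed by 0.00 and 0.24 in α-KG alone, and neither passed the test.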

How the data were processed

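RNA of 16 tumors was sequenced as poly(A)-selected libraries. The authors deposited FPKM per gene with 2 decimals, and the submitters' processing notes name HISAT, Bowtie2 and the mm10 build, without their roles. How reads that map to several genes were counted, and the annotation, are not given in the sources used here. Values were taken as log2(FPKM + 1), computed from the deposited FPKM. Genes with at least 0.5 FPKM in 4 or more tumors were kept (12850 of 18929).

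A linear model with 4 group means was fitted with limma 3.58.1 (R 4.3.3), with moderated variances and trend, two-sided tests and Benjamini-Hochberg adjustment over all genes tested, after a test on simulated data. Slopes on Ifng, Csf1r and S100a8 were fitted with the group means, and jointly without them. Permutation tests were coded with numpy 2.4.6, with ranks from scipy 1.17.1. The members and gene lists were chosen with earlier results of these data known. All 8 members and the 3 reference genes are named. The genes most alike are the 5 with the highest r. The alternatives were quantile normalization, centering on tumor medians, rescaling to the same sum with and without hemoglobin genes, a pseudocount of 0.1, no filter or 1 FPKM, a replicate block, only the 2 groups compared, and leaving out each tumor. Nothing in the labels says that a replicate number marks a shared mouse or day, so p-values measure the spread between these 16 samples. Precision is set by 4 tumors per group.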

Additional observations from a re-analysis of the deposited data

Results flagged for a closer look

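S100a8, the neutrophil gene used as a reference for the ligands, had an interaction of α-KG and anti-PD1 of -6.09 on the log2(FPKM + 1) scale (SE 0.86, adjusted p = 0.00057 by limma). Its difference from vehicle was 6.04 after α-KG alone and 0.37 after α-KG + anti-PD1, so it is listed because its effect differed between the groups with and without the antibody. Of 44 sets of 4 tumors (the 8 ligands and 3 reference genes in 4 groups), none had a tumor that stood apart by Dixon's test at the 95% level.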

How the results depend on the processing

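Of 25 ligand results past the threshold, the alternatives other than the added covariates gave 615 values, of which 545 passed it in the same direction, 70 kept the direction without passing and 0 changed sign. Among results not past the threshold, 167 of 2069 values changed sign. The median gene of α-KG + anti-PD1 against vehicle was at 0.15, at -0.11 after quantile normalization, -0.16 after centering and 0.34 at the same sum. The cause was not tested for any change below.

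Counts of ligands follow as higher or lower. In α-KG + anti-PD1 against vehicle (5 higher, 1 lower), the lower count was 2 after quantile normalization or centering and 0 at the same sum, also without hemoglobin genes. In α-KG against vehicle (2 and 1), the higher count was 3 after quantile normalization, with the pseudocount of 0.1 or with only the 2 groups, and the lower count was 2 after centering or without hemoglobin genes and 0 at the same sum. In α-KG + anti-PD1 against anti-PD1 (1 and 0), the higher count was 4 at the same sum and 0 with only the 2 groups, and the lower was 1 after quantile normalization or centering. Against α-KG (2 and 0), the higher count was 0 after either. In α-KG against anti-PD1 (1 and 0), it was 2 with only the 2 groups, and the lower was 1 after centering or without hemoglobin genes. Anti-PD1 against vehicle had 1 higher with a pseudocount of 0.1, and the interaction 1 lower after centering. Slopes had 1 lower on Ifng after quantile normalization, centering or the pseudocount and 1 on Csf1r after the first 2. Joint slopes on Ifng (2 higher) gave 1 after quantile normalization or the 1 FPKM filter and 0 with the pseudocount or group means, with 1 lower after quantile normalization or centering. On Csf1r (2) they gave 1 with the pseudocount or group means, and on S100a8 (1) 0 with either, with 1 lower after centering. Correlations without the 2 farthest tumors passed for 2 ligands with Ifng (5 before), 4 with Csf1r (6 before) and 1 with S100a8 (0 before), and within groups for 0 with each gene (6, 5 and 1 before). Untransformed FPKM gave 3 with Ifng (Cd276, Vsir and Tnfrsf14) and 3 with Csf1r (Lgals9, Vsir and Tnfrsf14) within groups. Cd274 was not among them, with r = 0.82 for Ifng and 0.80 for Csf1r (adjusted permutation p = 0.161 for each).

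Leaving out each tumor gave 4 to 5 higher and 0 to 1 lower for α-KG + anti-PD1 against vehicle, 0 to 2 and 0 for anti-PD1, 2 to 3 and 0 to 2 for α-KG, 0 to 3 and 0 against anti-PD1 or α-KG, 0 to 1 and 0 to 1 for α-KG against anti-PD1 and 0 and 0 to 1 for the interaction. Slopes passed for 3 to 4 ligands on Ifng, 2 to 4 on Csf1r and 0 on S100a8, and joint slopes for 1 to 3, 1 to 2 and 1, with 0 to 1 lower on S100a8.

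Of 24 pairs of tumors with the same replicate number, 9 deviated together with r over 0.1 (range -0.64 to 0.41). Pairs with different numbers were not compared, so these values cannot tell whether the numbers pair the tumors. With the replicate block, 0 ligands were lower in α-KG against vehicle and 4 were higher in α-KG + anti-PD1 against vehicle.

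With Csf1r, Ifng or the pan-leukocyte markers in the fit, chosen after seeing the data, α-KG + anti-PD1 against vehicle had 0 higher and 0 lower in each, and against anti-PD1 0 higher. The share of all genes called was not counted in these fits, so the counts say nothing particular to the ligands. Against vehicle, the adjusted p of all 8 ligands was 0.998 or more with Csf1r or the markers. For α-KG + anti-PD1 against α-KG, Ifng gave 0 higher and 2 lower. α-KG against vehicle had 0 and 0 with Csf1r or the markers, and against anti-PD1 3 higher with Ifng and 1 lower with Csf1r or the markers. The interaction had 1 higher with Csf1r or the markers and 2 lower with Ifng. Signs turned in α-KG + anti-PD1 against vehicle for Cd276 (0.0641, 0.0299 and 0.0769 in that order), Lgals9 (-0.29, -0.29 and -0.34), Pdcd1lg2 (-0.12 with Ifng, -0.27 with the markers) and Vsir (-0.11 with the markers). Vsir also turned in α-KG against vehicle (-0.23 with the markers) and against α-KG (-1.49 with Ifng). Values not past the threshold before also turned, among them Pdcd1lg2 in α-KG against vehicle (-0.13 with Csf1r, -0.59 with the markers) and in α-KG + anti-PD1 against α-KG (-0.90 with Ifng), and Pvr in α-KG + anti-PD1 against vehicle (-0.02 with Csf1r).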
